A study of Mus musculus with 8 samples.

Results

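Complement was followed through 8 genes of the dorsal root ganglion (DRG), the cluster of sensory neuron cell bodies beside the spinal cord, before and after an injection of carrageenan into the hind paw. The genes were C1qa, C1qb, C1qc, C3, C4b, Serping1, C3ar1 and C5ar1, and they were taken by name from the deposited table of 24421 genes. All 8 were found there, and all 8 were among the 17328 genes that had enough counts to be tested. In one edgeR fit of all 8 libraries, none of the 8 genes passed in any of the 6 comparisons between time points. Under other settings, DESeq2 among them, C4b or C1qb passed in some comparisons. The 3 C1q chains were higher in both libraries of day 1 than in every other library, as were 3.28% of all tested genes. C3 had its highest levels at day 3.

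Complement is a cascade of blood and tissue proteins that marks cells, debris and microbes for removal. C1q, built from the products of C1qa, C1qb and C1qc, recognises its targets and starts the classical route, in which C4 and then C3 are cleaved. The fragments C3a and C5a act on the receptors C3ar1 and C5ar1 of myeloid cells, and the C1 inhibitor encoded by Serping1 restrains the first step. In nervous tissue C1q is made chiefly by macrophages and microglia, whereas C3, C4 and the C1 inhibitor can come from several cell types.

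The mice were wild-type C57BL/6J, given as 8 weeks old in the design text. The study's methods give male mice over an age range that starts there and runs higher. Carrageenan, a seaweed polysaccharide that inflames tissue, was given as 20 µl of a 1% solution into the left hind paw, and the L3 to L5 ganglia of that side were taken 1 day (1d), 3 days (3d) or 30 days (30d) later. Ganglia of naive, untreated mice gave the baseline (0d). No vehicle injection was among the groups, so the injection and carrageenan itself cannot be told apart. There were 2 libraries at every time point, each made from the pooled RNA of 2 to 3 mice. The labels give neurons as the cell type, but the RNA came from whole ganglia. Summed markers of sensory neurons stood at 11330 to 12440 CPM (counts scaled to a common library total) and those of Schwann cells at 5438 to 10800 CPM. The 12 macrophage markers summed to 148.1 to 189.3 CPM.

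The libraries held between 44123208 and 73580338 counts. At that depth a complement gene had from 62 counts, for C5ar1 in 0d replicate 1, to 11773, for Serping1 in 3d replicate 2. The counting error alone was therefore at most 1.14% for Serping1, 3.50% for the C1q chains and 12.7% for C5ar1. Some libraries stood apart from their partners. In 30d replicate 1 the neutrophil markers summed to 211.9 CPM against 93.8 CPM in replicate 2, and red blood cell markers to 515.3 against 276.4 CPM. In 0d replicate 1 neutrophil markers summed to 43.9 CPM against 92.8 CPM in replicate 2, and fibroblast markers to 1917 against 1295 CPM. Red blood cell markers at 0d were at 140.6 against 282.3 CPM. Skeletal muscle markers were at 127.1 against 68.1 CPM at 0d and at 104.7 against 18.0 CPM at 30d. Schwann cell markers stood at 10800 against 7898 CPM at 0d and 5438 against 7688 CPM at 30d. Across all genes, 0.346% passed the edgeR threshold (adjusted p under 0.05) at 1d against 0d, 0.219% at 3d against 0d and 0.0231% at 30d against 0d. The shares were 0.289% for 3d against 1d, 0.571% for 30d against 1d and 0.935% for 30d against 3d. Against these shares, 0 of the 8 complement genes passed in each of the 6 comparisons.

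Levels of different genes were compared per kilobase of the gene's length. Serping1 was the most abundant, with a median of 93.8 CPM per kilobase over the 8 libraries (range 87.9 to 104.7), and the median ratio to C1qa within a library was 5.12. C1qa, C1qb and C1qc followed with medians of 18.4, 16.6 and 14.3 CPM per kilobase. C4b had a median of 11.1 CPM per kilobase, C3 one of 1.86, C3ar1 one of 0.700 and C5ar1 one of 0.679. The ranges of Serping1 and C1qa, of C4b and C3, and of C3 and C3ar1 did not overlap. Those of neighbours among the C1q chains and C4b did, although C1qa lay above C1qb, and C1qc above C4b, in all 8 libraries. C1qb lay above C1qc in 7 of 8. The place of C4b depended on the length used, since 35.2% of its 50-base words also occur in C4a and reads that mapped to both were not counted. With its whole count divided by the remaining 3495 bases, its median was 17.1 CPM per kilobase (range 14.8 to 24.1). There it lay above C1qc in 8 of 8 libraries and above C1qa in 2. This division takes every read from the shared words as lost, so it gives an upper limit. The receptors could not be ordered, since C3ar1 lay above C5ar1 in 3 of 8 libraries.

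**Figure D1:**
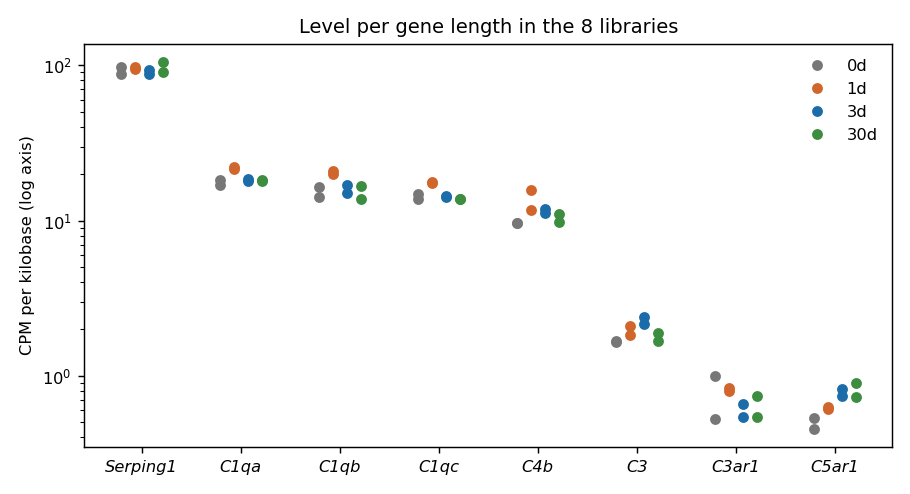
Level of each complement gene in CPM per kilobase of gene length (log axis), with 1 point per library and the 4 time points side by side in colour. Serping1 lies highest, between 87.9 and 104.7, the C1q chains and C4b form a middle group, and both receptors lie at or below 1.00.

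C1qa, C1qb and C1qc lie side by side on the minus strand of chromosome 4 of mm10, in a stretch of 18700 bases from 136880145 to 136898844, with 3 exons each. No exon base of the 3 genes was shared with another gene of the table, and no 50-base word of their transcripts occurred in a transcript of another gene. To show where the neighbouring genes start, the 250 bases before the RefSeq start of C1qb (chr4:136886201-136886450) and of C1qc (chr4:136892915-136893164) are given from build GRCm38.p6, 5′ to 3′ on the minus strand. They are the 2 C1q chains with an entry among the RefSeq promoters, which covered 5 of the 8 genes. Capitals mark the one motif found in them, GAGGAA on either strand, the core recognised by PU.1, a transcription factor of macrophages.
C1qb: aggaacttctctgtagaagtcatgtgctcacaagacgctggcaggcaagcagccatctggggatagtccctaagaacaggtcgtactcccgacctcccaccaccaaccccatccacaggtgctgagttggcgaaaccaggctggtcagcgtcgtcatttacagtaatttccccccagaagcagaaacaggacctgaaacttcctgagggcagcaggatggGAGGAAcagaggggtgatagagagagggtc
C1qc: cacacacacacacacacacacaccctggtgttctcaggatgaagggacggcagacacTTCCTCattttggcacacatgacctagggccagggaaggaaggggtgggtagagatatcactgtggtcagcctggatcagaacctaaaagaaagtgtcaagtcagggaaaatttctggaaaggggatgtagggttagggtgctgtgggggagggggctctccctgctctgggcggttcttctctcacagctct
The match began 30 bases before the start in C1qb and 193 bases before it in C1qc, where it is on the opposite strand. Of 32851 such windows of all genes, 23.3% held the motif. The windows of C3, C3ar1 and C5ar1, searched in the same way, did not hold it. Neither window held the gamma-activated site TTCNNNGAA (7.02% of windows) or the interferon response element (2.98%), both bound by interferon-activated factors, or TATAAA (12.4%), each searched on both strands. A match is a description of the letters and not of binding.

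The 3 C1q chains had their highest levels at 1d. C1qa was at 19.9 and 18.4 CPM in the 0d libraries, 24.0 and 23.1 in those of 1d, 19.35 and 20.2 in those of 3d and 19.9 and 19.4 in those of 30d. C1qb was at 17.5 and 15.0 CPM in the 0d libraries, 22.3 and 21.2 in those of 1d, 15.9 and 18.0 in those of 3d and 14.6 and 17.8 in those of 30d. C1qc was at 15.5 and 14.5 CPM in the 0d libraries, 18.5 and 18.6 in those of 1d, 15.2 and 14.9 in those of 3d and 14.6 and 14.5 in those of 30d. In all 3 chains both 1d libraries lay above the 6 others, a pattern that 3.28% of all tested genes also had. The levels of 0d, 3d and 30d overlapped in C1qa and C1qb, and in C1qc the libraries of 30d lay just below those of 3d.

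At 1d against 0d the log2 fold change was 0.30 for C1qa (standard error 0.09, 95% interval 0.11 to 0.49), 0.42 for C1qb (0.12, 0.17 to 0.67) and 0.30 for C1qc (0.10, 0.10 to 0.51). The unadjusted p-values were 0.00385, 0.00276 and 0.00695, which placed the chains at ranks 150, 135 and 205 among the 17328 genes. After adjustment over all genes by edgeR's quasi-likelihood test they were 0.445, 0.354 and 0.585. The genes that passed at this time point had unadjusted p-values of at most 0.000143. The difference of the C1q chains therefore did not pass at 2 pools per time point.

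The steps away from 1d had the opposite sign. At 3d against 1d the log2 fold changes were -0.25 for C1qa, -0.36 for C1qb and -0.30 for C1qc, with edgeR adjusted p-values of 0.717, 0.585 and 0.585. With only the 2 compared groups in the fit, C1qb passed at -0.37 (edgeR adjusted p = 0.0307). At 30d against 1d they were -0.26, -0.43 and -0.35 (edgeR adjusted p = 0.260, 0.168 and 0.168). Here C1qb passed without the filter on low counts (adjusted p = 0.0404) and without 30d replicate 2 (adjusted p = 0.0498, both from edgeR), a fit that takes the lone 30d library to vary like the other groups, while without 30d replicate 1 it was at -0.30. These steps share the 1d libraries with the comparison against 0d and are no separate evidence. At 3d and 30d against 0d the 3 chains lay between -0.05 and 0.06 on the log2 scale, with 95% intervals that reached from -0.25 to 0.31.

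The proportions of the chains varied little. Of their summed level per kilobase, C1qa made up 37.5% ± 1.13 (SD, n = 8 libraries), C1qb 32.9% ± 1.70 and C1qc 29.6% ± 0.904. C1qb had the widest range, from 30.0% in 30d replicate 1 to 34.6% in 1d replicate 1. At 1d its share was 34.2% ± 0.517 against 32.4% ± 1.26 at 0d (SD, n = 2 each), a gap that was not tested. The summed level of the 3 chains was 64.8 and 63.0 CPM at 1d, and between 48.0 and 53.1 CPM in the other 6 libraries.

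**Figure D2:**
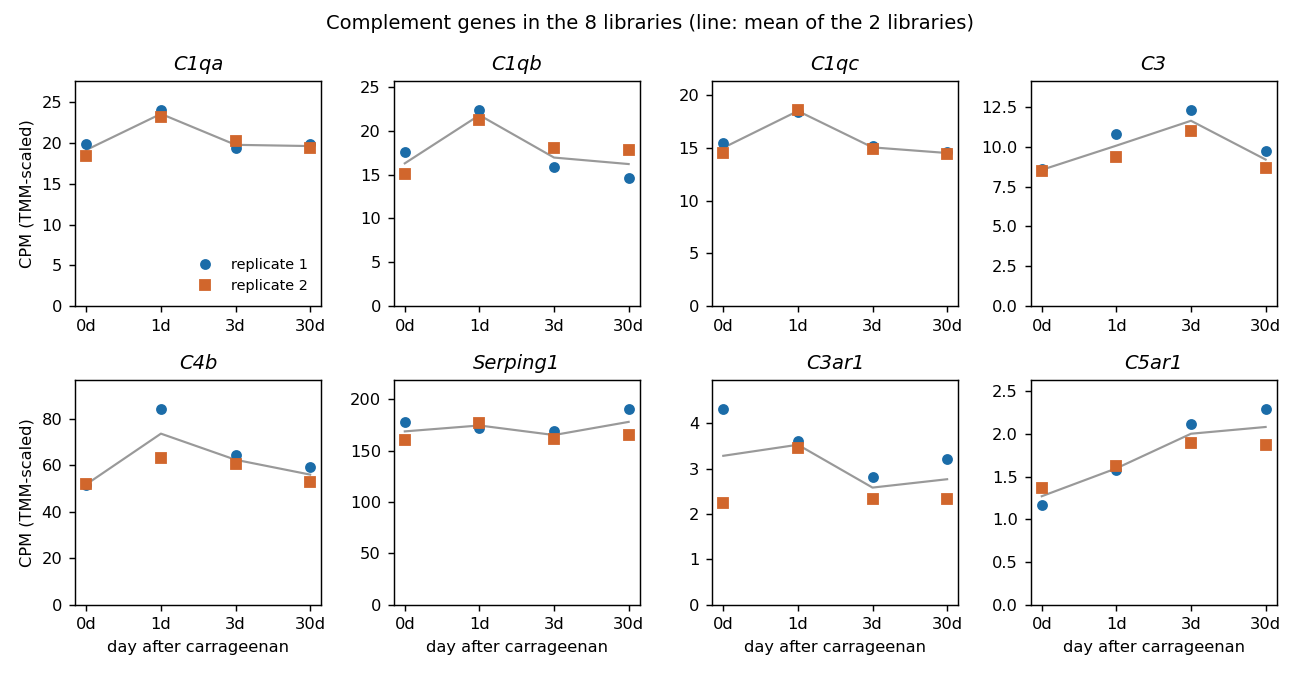
Each panel plots 1 complement gene in TMM-scaled CPM (axis from 0) against the time point, which is spaced evenly and not by days, with circles for replicate 1, squares for replicate 2 and a line through their means. C1qa, C1qb and C1qc peak at 1d in both replicates, C3 at 3d, and C3ar1 has its widest gap between replicates at 0d.

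In bulk ganglia more cells of a type and more RNA per cell cannot be told apart, so the macrophage markers were set beside C1q. With edgeR, none of the 12 passed at 1d against 0d and 1 had an unadjusted p under 0.05, beside 4.47% of all genes. Their median log2 fold change was 0.11, and 3 had both 1d libraries above both of 0d, beside 15.5% of all genes. The summed level of the markers was 159.5 and 148.1 CPM at 0d and 152.8 and 160.0 CPM at 1d, so these ranges overlapped. Their mean log2 CPM, in which each marker counts alike, was 2.87 and 2.76 at 0d and 2.93 and 2.97 at 1d, and these ranges did not overlap. Relative to the mean log2 CPM of the markers, C1qa stood at 1.44 ± 0.00360 at 0d and 1.61 ± 0.0624 at 1d (SD, n = 2 each). C1qb stood at 1.21 ± 0.0738 and 1.496 ± 0.0763, and C1qc at 1.10 ± 0.0161 and 1.26 ± 0.0195. At 3d against 0d 1 of the 12 markers passed, beside 0.219% of all genes. It was Cx3cr1, a receptor of resident macrophages, which fell with a log2 fold change of -1.02 (edgeR adjusted p = 0.00794). Cd163, also a macrophage marker, went the other way at 1.045 (edgeR adjusted p = 0.31), and the median of the 12 was -5e-04. The C1q chains were at 0.00 to 0.06 in that comparison. Markers of several other cell types had medians below 0 at 1d against 0d. The median log2 fold change was -1.17 for skeletal muscle, -0.30 for fibroblasts, -0.23 for Schwann cells and -0.14 for satellite glia. Of these markers Myh1, a muscle myosin, and Lum, a matrix protein of fibroblasts, fell (edgeR adjusted p = 0.0324 and 0.0326). Medians lay above 0 for neutrophil (0.70), red blood cell (0.33), lymphocyte (0.18) and sensory neuron markers (0.05). Endothelial markers had a median of -0.03. The part of any cell type in the C1q levels was not tested.

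**Figure D3:**
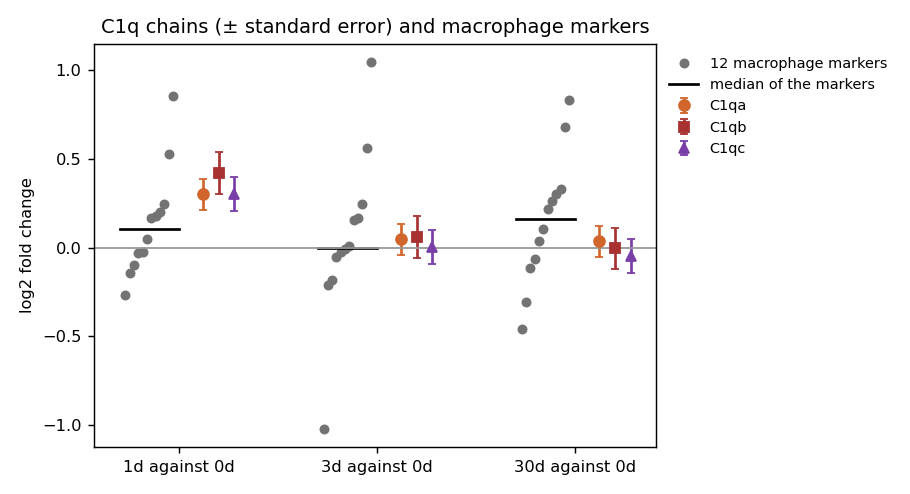
Log2 fold change against 0d of the 12 macrophage markers (grey points, sorted, with their median as a bar) and of the 3 C1q chains (coloured, with bars of 1 standard error) at 1d, 3d and 30d. At 1d the chains lie at 0.30 to 0.42, above the marker median of 0.11, and at 30d they lie below it.

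C4b, whose product is cleaved by the activated C1 complex, stood higher at 1d than at 0d. It lies on chromosome 17 of mm10 (34728381 to 34743897) and held 51.75 and 51.9 CPM in the 0d libraries, 84.2 and 63.0 in those of 1d, 64.3 and 60.5 in those of 3d and 59.2 and 52.9 in those of 30d. All 6 libraries after injection lay above both 0d libraries, an order whose share among all genes was not computed. The lowest of the 6, 30d replicate 2 at 52.9 CPM, stood near 0d replicate 2 at 51.9 CPM. Their counting errors were 1.64% and 1.77%. At 1d, replicate 1 lay far above its partner. The log2 fold change at 1d was 0.51 (standard error 0.13, 95% interval 0.21 to 0.80), with an edgeR adjusted p of 0.488. DESeq2 called C4b at a nearly equal log2 fold change of 0.51, with an adjusted p of 0.000345. With 1 library left in a group, as in each such value given here, that library is assumed to vary like the other groups. Left without its second library, 1d stood 0.70 above 0d on the log2 scale (edgeR adjusted p = 0.000643), and left without replicate 1 it stood 0.28 above (edgeR adjusted p = 0.577).

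At 3d and 30d against 0d, C4b was at 0.27 and 0.11 on the log2 scale, with edgeR adjusted p-values of 0.864 and 0.764. The 30d value was 0.03 without 30d replicate 1 and 0.19 without 30d replicate 2. In a fit of the 0d and 3d groups only, the 3d value of 0.27 passed (edgeR adjusted p = 0.0437). At 30d against 1d it was at -0.40 (edgeR adjusted p = 0.308), which DESeq2 called with an adjusted p of 0.0162. Without 1d replicate 2 this was -0.59 (edgeR adjusted p = 0.00321), and without 1d replicate 1 it was -0.17 (edgeR adjusted p = 0.369). At 3d against 1d it was -0.24, with -0.43 without 1d replicate 2 (edgeR adjusted p = 0.0389) and -0.01 without 1d replicate 1 (edgeR adjusted p = 0.996). C4a, with which C4b shares sequence, held 0.251 to 0.777 CPM in the 8 libraries. The C4b count is less certain because of the shared sequence.

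Beside C4b and C1q, 18 interferon-stimulated genes were read. At 1d against 0d 13 of them rose by edgeR's test and none fell, where 0.346% of all genes passed. The median over the list was 1.201 on the log2 scale. At 3d 2 of the 18 rose, where 0.219% of all genes passed. At 30d none passed with edgeR, and 2 had an unadjusted p under 0.05, both with values below 0d, beside 12.3% of all genes. Their summed level was 827.4 CPM in 1d replicate 1 and 692.0 in replicate 2, against 371.5 in each 0d library. The list's part in the levels of C4b and C1q was not tested.

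C3, the central component of the cascade, had its highest levels at 3d. It lies on chromosome 17 of mm10 (57203967 to 57228136) and held 8.62 and 8.48 CPM in the 0d libraries, 10.8 and 9.35 in those of 1d, 12.3 and 10.98 in those of 3d and 9.74 and 8.65 in those of 30d. Both 3d libraries lay above both 0d libraries, beside 19.9% of all genes. The 30d libraries lay just above those of 0d, beside 19.4%. The lower 3d library, at 10.98 CPM, stood near the higher one of 1d, at 10.8 CPM. The log2 fold change at 3d was 0.44 (standard error 0.13, 95% interval 0.17 to 0.72), with an unadjusted p of 0.00401, rank 180 of 17328, and an edgeR adjusted p of 0.386. With a library left out in turn it stayed between 0.36 and 0.52. At 1d it was 0.24 and at 30d 0.10, with edgeR adjusted p-values of 1 and 0.785. The 1d value was 0.13 without 1d replicate 1. The 30d value was 0.02 without 30d replicate 1 and 0.19 without 30d replicate 2. From 3d to 30d it was -0.34 (edgeR adjusted p = 0.277). At 3d against 1d it was 0.21 (95% interval -0.07 to 0.49, edgeR adjusted p = 1). It was 0.11 without 1d replicate 2 and 0.32 without 1d replicate 1. The difference between 3d and 1d did not pass.

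Serping1, which encodes the C1 inhibitor, varied least from library to library by the ratio of highest to lowest. It lies on chromosome 2 of mm10 (84765360 to 84775429) and held 177.6 and 159.9 CPM in the 0d libraries, 172.2 and 176.8 in those of 1d, 169.3 and 161.1 in those of 3d and 190.5 and 165.5 in those of 30d. Its highest library was 1.19 times its lowest, and the 1d, 3d and 30d groups each overlapped that of 0d. Its differences from 0d on the log2 scale were 0.05, -0.03 and 0.08, with 95% intervals of -0.10 to 0.19, -0.18 to 0.11 and -0.07 to 0.22. The bound farthest from 0 was 0.22, and the intervals rest on the spread between 2 pools per time point. The 30d value was -0.03 without 30d replicate 1 and 0.17 without 30d replicate 2. Pools of one time point differed by a coefficient of variation of 6.51%, wider than the 2.43% of C1qc and 3.48% of C1qa.

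The receptor genes were the least abundant and the least precise. C5ar1, the receptor for C5a, held 1.17 and 1.37 CPM in the 0d libraries, 1.575 and 1.62 in those of 1d, 2.12 and 1.89 in those of 3d and 2.29 and 1.87 in those of 30d. Every library after injection lay above both 0d libraries, and those of 3d and 30d lay above those of 1d. The share of all genes with this whole order was not computed. The higher 0d library, at 1.37 CPM, had a counting error of 10.9%. The lowest library after injection, 1d replicate 1 at 1.575 CPM, had one of 11.7%, so this gap was small beside the counting error. C5ar1 lies on chromosome 7 of mm10 (16246743 to 16259540). Its log2 fold changes against 0d were 0.33 at 1d, 0.65 at 3d and 0.71 at 30d, with 95% intervals of -0.29 to 0.95, 0.05 to 1.25 and 0.10 to 1.31. The edgeR adjusted p-values were 1, 0.758 and 0.336. The gene had 62 to 138 counts per library.

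Neutrophils also carry C5ar1, and the 8 of their markers that were tested had median log2 fold changes of 0.70, 1.03 and 1.06 at 1d, 3d and 30d. None passed with edgeR, and 1, 1 and 3 of them had an unadjusted p under 0.05, where 4.47%, 5.94% and 12.3% of all genes did. Their summed level was 43.9 and 92.8 CPM in the 0d libraries, 105.9 and 111.6 in those of 1d, 138.3 and 140.1 in those of 3d and 211.9 and 93.8 in those of 30d. The red blood cell and lymphocyte markers, like those of neutrophils and C5ar1 itself, were lowest in 0d replicate 1 and highest in 30d replicate 1. The part of any of these cells in the C5ar1 level was not tested. Without 0d replicate 1 the C5ar1 log2 fold change at 30d was 0.60, and without 30d replicate 1 it was 0.55.

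C3ar1, the receptor for C3a, showed no common direction. It lies on chromosome 6 of mm10 (122847140 to 122856157) and held 4.31 and 2.25 CPM in the 0d libraries, 3.603 and 3.44 in those of 1d, 2.82 and 2.34 in those of 3d and 3.20 and 2.33 in those of 30d. The 0d libraries spanned the whole range of the others, and no time point lay apart from 0d. The log2 fold changes against 0d were 0.11, -0.34 and -0.24, with 95% intervals of -0.51 to 0.73, -0.96 to 0.27 and -0.86 to 0.37. The signs depended on 1 library. Without 0d replicate 1 the values at 3d and 30d were 0.20 and 0.29, and without 0d replicate 2 the value at 1d was -0.29. Both 1d libraries lay above those of 3d and 30d, with log2 fold changes of -0.45 and -0.35 for the later time points (edgeR adjusted p = 1 and 0.652). The 30d value was -0.60 without 30d replicate 1 and -0.14 without 30d replicate 2.

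**Figure D4:**
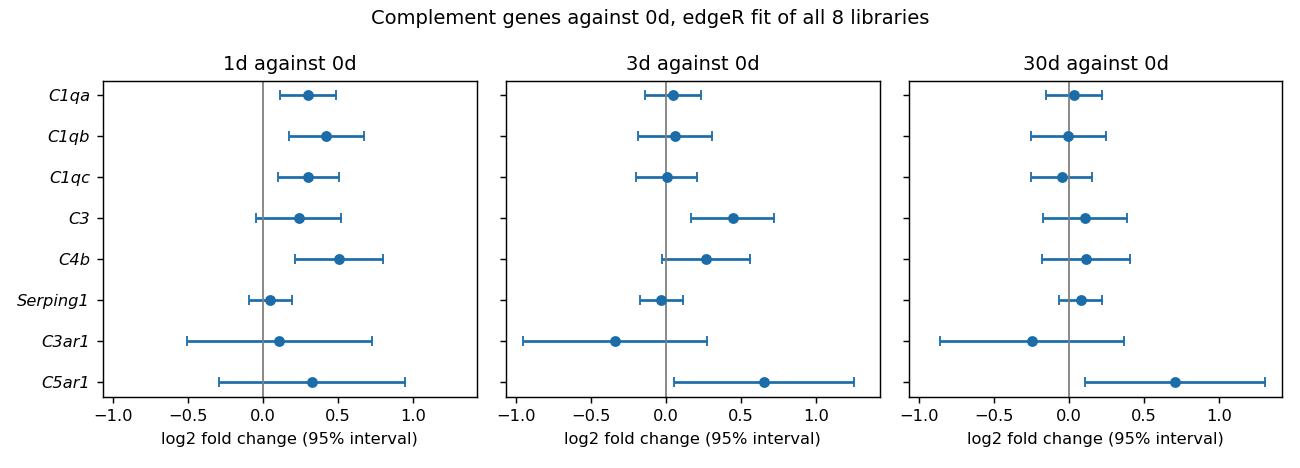
Log2 fold change of each complement gene at 1d, 3d and 30d against 0d from the edgeR fit of all 8 libraries, with bars for the 95% interval of each gene alone. The intervals lie above 0 for the C1q chains and C4b at 1d, for C3 and C5ar1 at 3d and for C5ar1 at 30d, none of which passed after adjustment over all genes, and the receptors have the widest intervals.

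By an unadjusted p under 0.05, 4 of the 8 genes differed at 1d against 0d, the C1q chains and C4b, where 4.47% of all tested genes did. Among the same 8 genes DESeq2 called 1 after adjustment, C4b, where it called 110 of the 16320 genes it gave an adjusted p, and limma-voom none, and each of these tools put 4 of the 8 under the unadjusted 0.05. At 3d against 0d there were 2, C3 and C5ar1, beside 5.94% of all genes, and at 30d 1, C5ar1, beside 12.3%. At 3d against 1d the C1q chains were under 0.05, beside 4.24% of all genes, and at 30d against 1d the chains and C4b were, beside 11.7%. From 3d to 30d it was C3 alone, beside 13%. After adjustment DESeq2 called none of the 8 in the other comparisons except C4b at 30d against 1d, where it called 229 of 15648 genes, and limma-voom called none in any.

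In 6 of the 8 genes both 1d libraries lay above both 0d libraries, the exceptions being Serping1 and C3ar1, and 15.5% of all genes had this order. Both 3d libraries lay above 0d in 3 genes, C3, C4b and C5ar1, beside 19.9% of all genes. The same 3 genes had both 30d libraries above 0d, beside 19.4%. Both 1d libraries lay above both 30d libraries in 5 genes, the C1q chains, C4b and C3ar1, beside 20.4%. The median log2 fold change over the 8 genes was 0.30 at 1d, 0.05 at 3d and 0.06 at 30d, where the median over all tested genes was 0.00 each time. All 8 values at 1d were above 0, as were 48.8% of all genes, but without 0d replicate 2 Serping1 (-0.03) and C3ar1 (-0.29) were below it. The 3 comparisons share the 0d libraries, and the C1q chains are 3 of the 8 values.

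The rest of the pathway was read from 45 other complement genes, of which 38 were tested. None of the 38 passed in any of the 6 comparisons with edgeR. At 1d none had an unadjusted p under 0.05, beside 4.47% of all genes. The median log2 fold change was 0.00, against 0.30 for the 8 genes above. The 16 activation genes had a median of 0.03, the 12 regulators one of 0.00 and the 6 receptor genes one of 0.14. The 4 terminal pathway genes had a median of -0.45 and low levels, from 0 CPM for C6 to 3.28 CPM for C8g. At 3d 1 of the 38 had an unadjusted p under 0.05, beside 5.94% of all genes. At 30d 6 had, all above their 0d level, beside 12.3% of all genes, and the list's median stood at 0.25. Between later time points the numbers were 0 for 3d against 1d (4.24% of all genes), 7 for 30d against 1d (11.7%) and 1 for 30d against 3d (13%). The gene with the smallest adjusted p at 30d, singled out after its value was seen, was Itgam, the alpha chain of complement receptor 3 on myeloid cells. It held 4.33 and 4.53 CPM in the 0d libraries, 4.85 and 4.97 in those of 1d, 6.39 and 6.17 in those of 3d and 9.97 and 6.36 in those of 30d. Its log2 fold change at 30d was 0.88 (standard error 0.19, edgeR adjusted p = 0.1). The higher of its 30d values was in replicate 1, where macrophage, neutrophil, lymphocyte and red blood cell markers also stood highest.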

How the data were processed

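RNA of mouse DRG was sequenced from TruSeq libraries. Per the labels and the file headers, the authors used cutadapt 2.10 for trimming, STAR 2.7.5a for alignment to mm10 and featureCounts 2.0.1 for counting read pairs on UCSC genes, unstranded, with pairs over several genes counted for each and multi-mapped reads left out. The deposited values are these raw counts per gene, which were matched to samples by column name. Counts were filtered with filterByExpr (7093 genes left out, at most 0.012% of a library's counts), scaled by TMM (factors 0.993 to 1.01) and tested in one robust quasi-likelihood fit of all 8 libraries with edgeR 4.0.16 in R 4.3.3, with time point as the only term. Adjustment over all genes was that of Benjamini and Hochberg, for 17328 genes, and the threshold was 0.05. CPM and log2 CPM (prior count of 2) use the same scaling, and standard errors are the log2 fold change over the square root of F. No set test was run. DESeq2 1.42.0 and limma 3.58.1 served as alternatives. The fits were tested on simulated counts. Replicates of a group differed by more than sampling noise (chi-square per degree of freedom 7.10 to 25.0). The labels do not say whether pools came from separate experiments, so p-values measure the spread between these pools. By rule the text names the 8 genes and any of the 45 other complement genes that passed. It also names the 3 genes nearest in profile to each member that passed. None of the 8 or the 45 passed in that edgeR fit. Itgam, Cx3cr1, Cd163, C4a, C6, C8g, Myh1 and Lum were named after their values were seen. The genes and lists were chosen with earlier results of these data known. Intervals and counting errors cover single genes only. The behavioural tests were not used here.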

Additional observations from a re-analysis of the deposited data

How the results depend on the processing

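The 8 complement genes were refitted under 17 other settings in each of the 6 comparisons. Of the 816 log2 fold changes, 779 kept their sign and their side of the threshold, 10 passed it and 27 turned sign, all of the latter without passing. The number of the 8 genes that passed at 1d against 0d was 1 with DESeq2 and 1 with the replicate number as a block. In both cases it was C4b, where 110 and 73 of all genes passed against 60 as reported. The replicate block put C4b at 0.50 (edgeR adjusted p = 0.0275), and it changed no other call among the 8 genes. Of all genes it called 69 at 30d against 0d, where 4 passed as reported, and 159 at 30d against 1d, where 99 did. Deviations of same-numbered libraries had correlations of -0.0144 to 0.0438 across genes. A factor shared by only some genes could go unseen in these correlations, so they do not settle whether the numbers pair the libraries. With only the 2 compared groups fitted, 1 gene passed at 3d against 0d and 1 at 3d against 1d, where 121 and 260 of all genes passed against 38 and 50 as reported. At 30d against 1d 1 gene passed without the filter and 1 with DESeq2, where 213 and 229 of all genes passed against 99 as reported. Further passes came only from fits that left 1 library in a group. There C4b without 1d replicate 2 was at 0.70 at 1d against 0d, -0.43 at 3d against 1d and -0.59 at 30d against 1d. C1qb without 30d replicate 2 was at -0.57 at 30d against 1d. Such fits assume that the lone library left in a group varies like the other groups. The causes of these differences were not tested.

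C1qb at 30d against 0d, -0.0047 as reported, was 0.0067 with upper quartile normalization, 3e-04 with a filter of 1 CPM and 0.0086 with limma-voom. The values that turned sign without a library had these ranges on the log2 scale. At 1d against 0d they were C3ar1 from -0.29 to 0.65 and Serping1 from -0.0256 to 0.13. At 3d against 0d they were C1qa from -0.0078 to 0.10, C1qb from -0.0481 to 0.17, C1qc from -0.0423 to 0.0516, C3ar1 from -0.74 to 0.20 and Serping1 from -0.10 to 0.0467. At 30d against 0d they were C1qa from -0.0207 to 0.0923, C1qb from -0.15 to 0.13, C3ar1 from -0.64 to 0.29 and Serping1 from -0.0297 to 0.17. At 30d against 1d they were Serping1 from -0.0778 to 0.13. At 30d against 3d they were C1qa from -0.0427 to 0.0181, C1qb from -0.21 to 0.0652, C3ar1 from -0.15 to 0.31 and C5ar1 from -0.0985 to 0.19. The mean level of C1qc per kilobase ranged from 14.6 to 15.2 CPM, lowest without either 1d library. That of C4b was 17.45 CPM with its whole count divided by its unshared length. This alternative was chosen after seeing the data and gives an upper limit. Counting error was at most 12.7% for C5ar1 and 8.51% for C3ar1, beside a spread within groups of 9.92% and 25.8%, and each time point had 2 pools.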
